A study of Homo sapiens with 18 samples.

Results

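The HOX genes were taken as every gene whose symbol is HOX, a cluster letter A to D and a paralogue number, which gave 39 of the 20365 genes in the deposited tables. The HOXA cluster held 11 members, HOXB 10, HOXC 9 and HOXD 9. By paralogue number, 8 members were of groups 1 to 3, 15 of groups 4 to 8 and 16 of groups 9 to 13. They were measured by RNA sequencing in PC3, a cell line from a human prostate carcinoma, in 6 groups of 3 libraries, 18 in all. For the knockdown experiment the cells, grown in RPMI with 10% serum, received lentiviral hairpins that target ELOB (EloB KD), ELOC (EloC KD) or serve as control (Control KD). For the peptide experiment cells held in 2.5% serum were given the WT, the Mutant or the Scrambled peptide at 12,5 µM for 24 h. The labels give neither the number of hairpin sequences per gene nor the origin of the replicates, which may be technical, and the p-values reflect the variation among these libraries alone.

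HOX genes encode homeodomain transcription factors that set position along the body axis. In mammals they lie in 4 clusters, each read in 1 direction, and the order of genes along a cluster follows the order in which they are switched on from head to tail, so that low paralogue numbers are anterior and high ones posterior. Polycomb and Trithorax complexes keep the clusters off or on, retinoic acid switches on the anterior end, and PBX and MEIS proteins bind DNA together with HOX proteins. HOXB13 is the posterior member best known in the prostate, and HOXA13 and HOXD13 act in the genital tract and limb. Elongin B and Elongin C form a dimer that serves Elongin A in transcription elongation and the cullin ubiquitin ligases that recognise a BC-box.

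The libraries held 40.3 to 57.2 M reads in the knockdown experiment and 31.7 to 34.7 M in the peptide experiment, of which 16910 to 38881 and 17433 to 21225 were from HOX genes. ELOB fell by 2.82 ± 0.20 on the log2 scale in EloB KD cells and ELOC by 3.12 ± 0.10 in EloC KD cells (SE, adjusted p = 3.55e-05 and 1.41e-07, limma). Of 4 genes listed for PC3 cells as present, KRT8, KRT18, EPCAM and VIM were all detected, and KLK3, listed as absent or very low, had no read in any library. Of 5 markers of other cells, PTPRC, ALB and GFAP stayed at or under 32.2 and PECAM1 and COL1A1 were measured in every library. The 5 summed to 2675 to 3104 in EloB KD, 3259 to 3826 in EloC KD and 1950 to 2424 in Control KD libraries, and the 4 present markers to 70128 to 71144, 63891 to 69978 and 69946 to 80639. In EloC KD cells COL1A1 was higher (log2 1.99 ± 0.19) and EPCAM (-1.76 ± 0.18) and KRT18 (-0.96 ± 0.13) were lower than in Control KD cells (SE, adjusted p = 4.86e-05, 6.45e-05 and 0.000290, limma). The part of these markers in the HOX results was not tested, and in bulk RNA fewer cells of a type cannot be told apart from less RNA per cell.

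The starts of 4 neighbours at the posterior end of the HOXA cluster are shown because EloC KD cells had HOXA9 and HOXA11 higher and HOXA10 and HOXA13 lower. These 4 genes, on the minus strand, lie within chr7:27162435-27200106 (GRCh38, GENCODE), with HOXA9 at the low and HOXA13 at the high coordinate. The 250 bases before each RefSeq start (GRCh38.p14, minus strand, 5′ to 3′) are printed with CpG dinucleotides in capitals. They are chr7:27165538-27165787 for HOXA9, chr7:27174321-27174570 for HOXA10, chr7:27185233-27185482 for HOXA11 and chr7:27200092-27200341 for HOXA13.
HOXA9: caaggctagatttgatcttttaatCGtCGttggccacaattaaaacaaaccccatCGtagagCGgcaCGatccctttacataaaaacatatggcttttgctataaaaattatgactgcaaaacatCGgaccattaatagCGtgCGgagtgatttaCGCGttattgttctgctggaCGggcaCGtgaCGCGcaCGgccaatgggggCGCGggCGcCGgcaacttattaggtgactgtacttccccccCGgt
HOXA10: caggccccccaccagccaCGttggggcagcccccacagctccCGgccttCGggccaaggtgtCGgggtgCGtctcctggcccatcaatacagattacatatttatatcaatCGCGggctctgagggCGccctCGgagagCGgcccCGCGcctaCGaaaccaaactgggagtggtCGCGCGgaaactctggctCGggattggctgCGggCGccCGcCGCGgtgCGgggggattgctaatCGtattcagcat
HOXA11: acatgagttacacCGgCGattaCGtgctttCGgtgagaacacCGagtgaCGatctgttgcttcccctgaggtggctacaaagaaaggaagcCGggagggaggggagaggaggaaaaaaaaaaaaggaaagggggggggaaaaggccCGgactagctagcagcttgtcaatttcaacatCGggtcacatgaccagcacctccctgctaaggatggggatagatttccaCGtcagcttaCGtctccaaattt
HOXA13: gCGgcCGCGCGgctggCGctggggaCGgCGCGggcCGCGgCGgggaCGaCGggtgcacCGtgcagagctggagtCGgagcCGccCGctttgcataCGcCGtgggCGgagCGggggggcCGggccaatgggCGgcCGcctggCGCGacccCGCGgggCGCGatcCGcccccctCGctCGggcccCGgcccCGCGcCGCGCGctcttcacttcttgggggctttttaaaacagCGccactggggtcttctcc
These windows held 20 CpG (HOXA9), 24 (HOXA10), 11 (HOXA11) and 40 (HOXA13), against a median of 11 over 35116 RefSeq promoter windows of this length and of 19 over the 27 windows that matched 20 of the HOX members. HOXA13 stood at percentile 98.1 of all windows and HOXA11 at 50.6. HOXA10 has a second RefSeq start, whose window (chr7:27179862-27180111, not printed) held 19 CpG, fewer than HOXA9. The letters TATAAA, on either strand, were in the HOXA9 and HOXA10 windows and not in the HOXA11 and HOXA13 windows. They were in 5 of the 27 HOX windows and 10.7% of all windows. In HOXA9 they read in the direction of the gene, and in the printed HOXA10 window on the other strand only. Whether they act as a TATA box was not tested. The letters TTTATNG, a sequence that posterior HOX proteins bind, were in 7 of the 27 and 8.93% of all, among these 4 in HOXA9. The letters TGATNNAT, bound by PBX with HOX, were in 3 of the 27 and 6.47% of all, and in none of these 4. The second HOXA10 window, not printed, held both TATAAA and TTTATNG. Both strands were searched. TTTATNG and TATAAA can overlap, and in the HOXA9 window the matches to them share bases and are not separate sites. Some HOX genes have several windows or share one, so the 27 are not independent. Which start PC3 cells use was not measured.

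The HOX genes with the most RNA in these PC3 cells were posterior. Per kilobase of annotated exon, HOXB13 ranked first in all 6 groups, and HOXA13, HOXA11, HOXA9 and HOXA10 were next in Control KD cells. HOXB13 averaged 2566 ± 442 normalised counts per kb in EloB KD, 2055 ± 459 in EloC KD and 5735 ± 740 in Control KD cells (SD, n = 3 each). In Control KD cells HOXA13 followed at 1363 ± 274 per kb, clear of HOXA11 at 718 ± 163, while HOXA11 and HOXA9 (626 ± 15.1) overlapped within 1 SD. HOXA4, HOXB9, HOXB6, HOXA5, HOXC13 and HOXD13 came next in Control KD cells, between 84.9 and 143 per kb, with every neighbour in that order overlapping within 1 SD. HOXB13 alone made up 37.9% ± 5.84 of all HOX normalised counts in EloB KD, 35.3% ± 5.40 in EloC KD and 57.0% ± 5.66 in Control KD cells (SD, n = 3).

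The order of levels differed between the groups. In EloB KD cells HOXA11, HOXA9 and HOXA13 were level at 839, 838 and 832 per kb, and in EloC KD cells HOXA11 (1040 ± 43.3) stood clear of HOXA9 (873 ± 64.7), which stood clear of HOXA13 (456 ± 104). HOXA10 had rank 5 in EloB KD cells (478 per kb), rank 6 in EloC KD cells (208), behind HOXA4 (247), and rank 5 in Control KD cells (461). In the 3 peptide groups HOXB13 averaged 2666 (WT peptide), 2883 (Mutant peptide) and 2628 (Scrambled peptide) per kb, and HOXA11, HOXA9, HOXA13 and HOXA10 took the next 4 ranks. The 2 experiments were normalised separately, so their levels were not tested against each other.

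**Figure D1:**
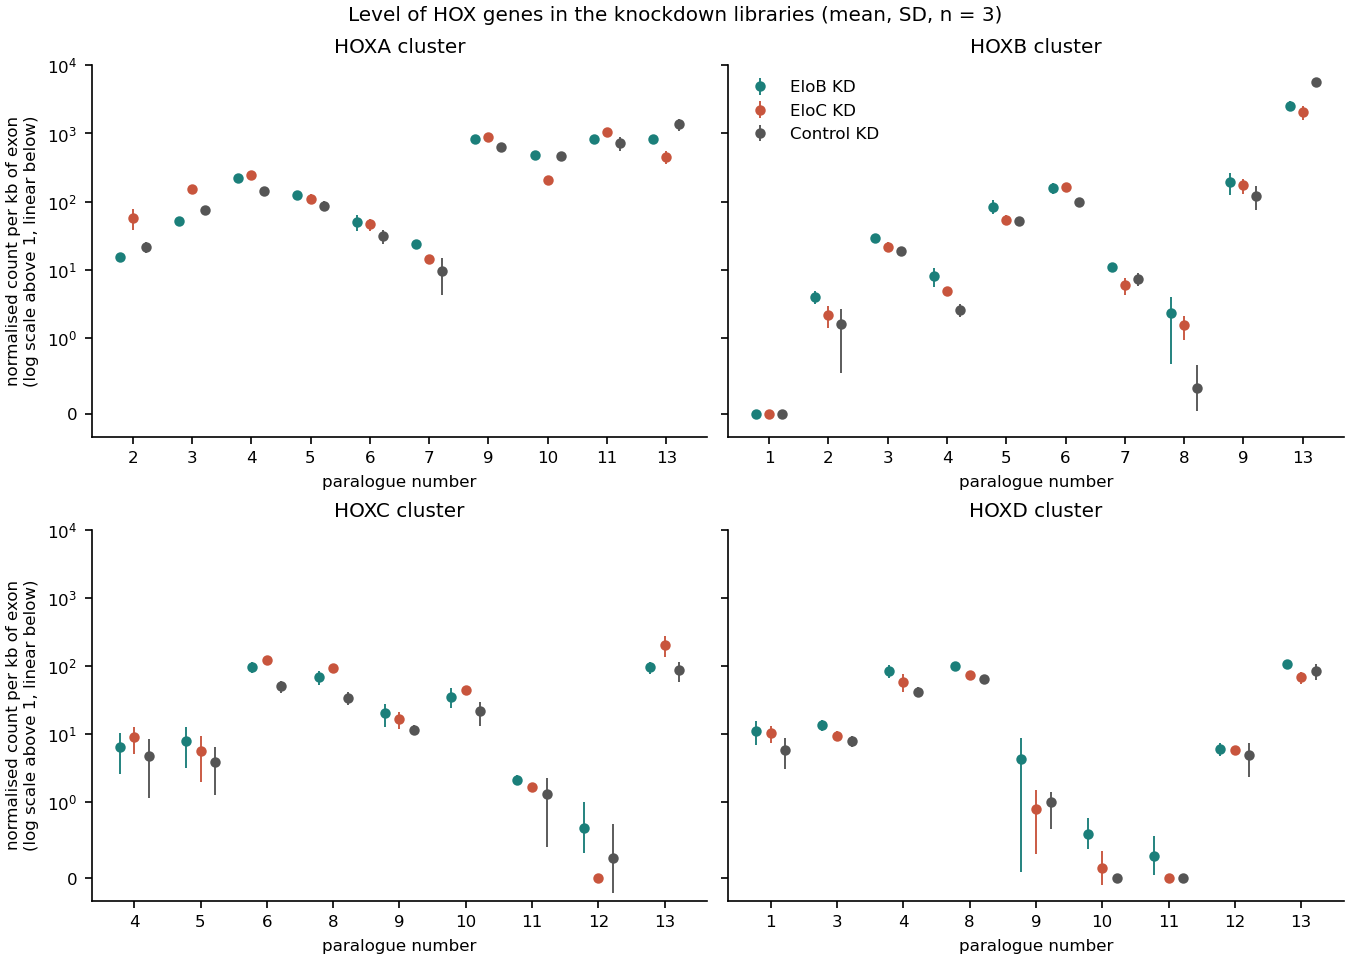
Level of HOX genes in the 3 knockdown groups, as mean normalised count per kilobase of exon with SD (n = 3), by cluster and paralogue number, on an axis that is logarithmic above 1 and linear below. HOXB13 reaches 5735 per kb in Control KD cells, while HOXB1 is at 0 and HOXC11, HOXC12 and HOXD9 to HOXD12 lie far below HOXC13 and HOXD13.

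HOXB, HOXC and HOXD held genes with little or no RNA, and all 11 HOXA genes were tested. Of the 39 members, 30 averaged at least 10 normalised counts over the knockdown libraries, with 5 at 1000 or more (HOXB13, HOXA13, HOXA9, HOXA11 and HOXA10), 13 between 100 and 1000 and 12 between 10 and 100. The other 9 were HOXB1, HOXB2, HOXB8, HOXC11, HOXC12, HOXD9, HOXD10, HOXD11 and HOXD12, and they were not tested. In the HOXD cluster these 4 posterior genes had at most 16.8 normalised counts in any knockdown library (HOXD9), whereas HOXD13, next to them at the end of the cluster, had 131 to 271. HOXC11 (at most 7.90) and HOXC12 (at most 2.88) likewise lay beside HOXC13, which had 165 to 694. HOXB1 had no read in any of the 18 libraries, which allows up to 0.0745 per M reads in a knockdown library and 0.0947 in a peptide library (3 reads, counting error only). In the peptide experiment 28 members passed, since HOXB7 and HOXD1 averaged under 10 there as well, and HOXD11 had no read.

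In EloB KD cells most HOX genes that changed were higher and the 2 strongest posterior genes were lower. EloB KD was set against Control KD to ask how loss of Elongin B changes PC3 transcripts. Of the 30 members tested, 15 passed (adjusted p under 0.05, limma), 12 higher and 3 lower, against 20.5% of the 13764 genes tested, of which 9.34% were higher and 11.2% lower. The median log2 fold change was 0.65 over the 30 HOX genes, 26 of which were above 0, and 0.00 over all genes. These values include HOXB4 and HOXC5, and the 12 higher include HOXB4. HOXB4 and HOXC5 averaged 9.85 and 6.98 in Control KD cells and reached the minimum of 10 through the knockdown libraries. Their direction is thus no support, and the values were not recomputed without them. Among the higher ones were HOXA4, HOXA7, HOXA9, HOXB3, HOXB4, HOXB5, HOXB6, HOXC6, HOXC8, HOXD4 and HOXD8, and the lower ones were HOXA3, HOXA13 and HOXB13. With the replicate number as a block 21 passed, 18 higher and 3 lower, against 36.3% of all genes (17.5% higher, 18.8% lower), adding HOXA5, HOXB9, HOXC9, HOXC10, HOXD3 and HOXD13. Leaving out 1 library gave 7 to 13, the fewest without EloB KD replicate 1, with 8 without EloB KD replicate 2 and 9 without Control KD replicate 1, and quantile scaling gave 8 (5 higher, 3 lower). Of all 13764 genes, 2822 passed in the main fit, 1915 to 2373 with 1 library left out and 2707 under quantile scaling.

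In EloC KD cells HOXA2, HOXA3, HOXA4 and 4 of 7 tested HOXC genes were higher, and posterior genes were called in both directions. Of 30 tested, 14 passed, 11 higher and 3 lower, against 42.5% of all genes (21.3% higher, 21.2% lower), so that the share of HOX genes called was near that of all genes. The median log2 fold change was 0.55 over the HOX genes, 25 of them above 0, and 0.01 over all genes. HOXB4 and HOXC5, which passed the filter through the knockdown libraries, are included in these values. Among the higher ones were HOXA2, HOXA3, HOXA4, HOXA9, HOXA11, HOXB6, HOXC6, HOXC8, HOXC10 and HOXC13, and the lower ones HOXA10, HOXA13 and HOXB13. All 14 passed under every alternative run, and the block added HOXB4, HOXB9 and HOXC4, for 17, against 57.0% of all genes (28.7% higher, 28.3% lower). Both comparisons use the same 3 Control KD libraries, so their values are given side by side and are not independent.

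**Figure D2:**
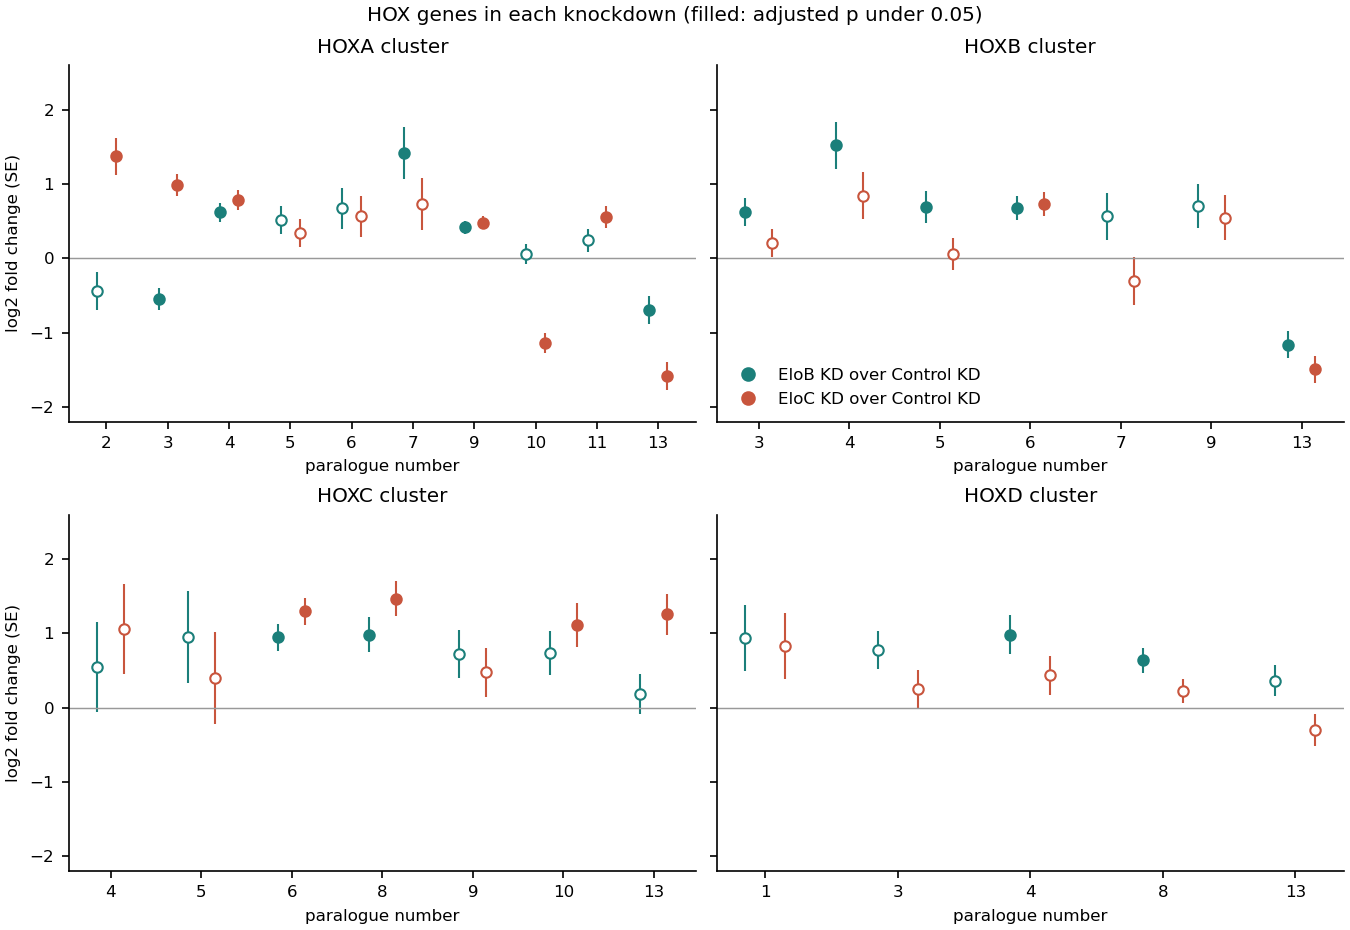
Log2 fold change with SE of the HOX genes tested in each cluster, for EloB KD (left of each pair) and EloC KD over Control KD, with filled points for an adjusted p under 0.05. In HOXA the EloC KD points lie between 1.37 at HOXA2 and -1.59 at HOXA13 without a steady fall, with HOXA10 at -1.14 and HOXA11 at 0.56. HOXA2 and HOXA3 lie on opposite sides of 0 in the 2 knockdowns, the EloB KD point of HOXA2 being open. The filled HOXC points lie above 0.

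By position, the counts of called genes were as follows, without a test between position classes. Of all genes tested, 9.34% were higher and 11.2% lower in EloB KD cells, and 21.3% higher and 21.2% lower in EloC KD cells. Among the 14 tested members of groups 4 to 8, EloB KD cells had 9 higher and 0 lower (median log2 0.68) and EloC KD cells 4 higher and 0 lower (median 0.65). The EloC KD count of 4 in 14 was near the share of all genes. The 14 include HOXB4, 1 of the 9 higher, and HOXC5, which both passed the filter through the knockdown libraries. Among the 10 tested of groups 9 to 13, EloB KD cells had 1 higher (HOXA9) and 2 lower, and EloC KD cells had 4 higher and 3 lower. All members called lower with a paralogue number of 9 or above were HOXA10, HOXA13 and HOXB13. Of the 6 tested in groups 1 to 3, EloB KD cells had 2 higher and 1 lower, and EloC KD cells had 3 higher and 0 lower. By cluster, EloC KD cells had 4 of 7 HOXC members higher and 0 of 5 HOXD members called, whereas EloB KD cells had 2 of 7 and 2 of 5 higher; these cluster counts were not tested against each other.

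HOXB13 was the HOX gene with the most RNA and fell in both knockdowns. Its normalised counts were 9384, 7179 and 10122 in EloB KD, 7749, 5317 and 8311 in EloC KD, and 20942, 16956 and 21752 in Control KD libraries 1 to 3. No library of either knockdown reached the lowest Control KD library. The log2 fold change was -1.17 ± 0.18 in EloB KD (adjusted p = 0.00169) and -1.50 ± 0.18 in EloC KD cells (adjusted p = 0.000149, limma). The 2 knockdowns themselves differed by 0.33 ± 0.18 (adjusted p = 0.160, and 0.00255 with the block).

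HOXA13, its paralogue, was lower in both knockdowns and lower still with EloC KD. It had 4815, 4164 and 3719 normalised counts in EloB KD, 2842, 1780 and 2329 in EloC KD, and 8350, 6886 and 5565 in Control KD libraries. The 3 groups did not overlap. The log2 fold change was -0.70 ± 0.19 in EloB KD (adjusted p = 0.0233) and -1.59 ± 0.19 in EloC KD cells (adjusted p = 0.000119), and EloB KD was 0.89 ± 0.19 above EloC KD (adjusted p = 0.00291, limma). The EloB KD call did not hold without EloB KD replicate 2 (-0.69, adjusted p = 0.0594), EloB KD replicate 3 (-0.61, 0.0822), Control KD replicate 1 (-0.56, 0.0782) or Control KD replicate 2 (-0.70, 0.0622).

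The counts of all HOX genes together summed to 23436 ± 652 in EloB KD, 20014 ± 1637 in EloC KD and 34845 ± 1758 in Control KD cells (SD, n = 3). Without HOXB13 and HOXA13 the order was the other way, at 10309 ± 958 in EloB KD, 10571 ± 409 in EloC KD and 8028 ± 1078 in Control KD cells. HOXC genes made up 3.68% ± 0.861 of HOX counts in EloB KD, 6.50% ± 1.90 in EloC KD and 1.58% ± 0.535 in Control KD cells, and HOXA genes 49.5%, 49.7% and 37.7%. These are shares of a total that was lower in both knockdowns. As counts, HOXA genes summed to 11588 ± 691 in EloB KD, 9921 ± 547 in EloC KD and 13106 ± 1527 in Control KD cells. HOXC genes summed to 860 ± 177, 1280 ± 256 and 545 ± 158 in the same order (SD, n = 3).

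HOXA10 separated the 2 knockdowns. It had 1679, 1925 and 1709 normalised counts in EloB KD, 778.8, 672.1 and 866.3 in EloC KD, and 1531, 1989 and 1612 in Control KD libraries. EloB KD and Control KD libraries overlapped, and every EloC KD library was below both. EloC KD was 1.14 ± 0.13 lower than Control KD on the log2 scale (log2 fold change -1.14, adjusted p = 0.000110), EloB KD differed by 0.06 ± 0.13 (adjusted p = 0.797), and EloB KD was above EloC KD by 1.20 ± 0.13 (adjusted p = 5.94e-05, limma). HOXA10 is a posterior gene of the uterus, and in blood progenitors it acts with HOXA9.

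The neighbours of HOXA10 on either side moved upward in EloC KD cells. HOXA9 had 2462, 2696 and 2461 normalised counts in EloB KD, 2855, 2466 and 2615 in EloC KD, and 1916, 1929 and 1844 in Control KD libraries, with both knockdowns clear of Control KD. Its log2 fold change was 0.42 ± 0.09 in EloB KD (adjusted p = 0.00780) and 0.48 ± 0.09 in EloC KD cells (adjusted p = 0.00155, limma). HOXA11 had 1767, 2229 and 1811 in EloB KD, 2435, 2476 and 2286 in EloC KD, and 1419, 2090 and 1462 in Control KD libraries. Only the EloC KD libraries were all above Control KD, with a log2 fold change of 0.56 ± 0.15 in EloC KD cells (adjusted p = 0.0127) against 0.24 ± 0.15 in EloB KD cells (adjusted p = 0.292, limma). In the annotation 481 of the 3029 exon bases of HOXA9 and 368 of the 3707 of HOXA10 are shared with other genes of the same strand, and HOXA10-AS, HOXA11-AS and HOTTIP overlap these genes on the other strand. Whether counting used strand is not given in the sources used here, so reads of such partners cannot be told apart. The same limit holds beyond these genes. Of the 39 members, 18 share exon bases with a gene of the same strand and 19 with a gene of the other strand.

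HOXA2 and HOXA3 had the largest differences between the knockdowns among the 30 members tested. HOXA3 had 208.7, 226.7 and 235.8 normalised counts in EloB KD, 535.3, 743.9 and 691.5 in EloC KD, and 297.7, 342.5 and 342.1 in Control KD libraries, and the 3 groups did not overlap. It was lower in EloB KD (log2 -0.55 ± 0.15, adjusted p = 0.0267) and higher in EloC KD cells (0.99 ± 0.15, adjusted p = 0.000499), and EloB KD stood 1.54 ± 0.15 below EloC KD (log2 fold change -1.54, adjusted p = 3.24e-05, limma). The EloB KD call was lost when any 1 EloB KD or Control KD library other than Control KD replicate 1 was left out (adjusted p 0.0530 to 0.0835, limma). EloC KD libraries were not left out for that comparison. The difference between the knockdowns held in every alternative. HOXA3 is needed for the thymus and parathyroid in mice.

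HOXA2, a hindbrain and ear gene, showed the same difference. It had 39.1, 37.5 and 38.8 normalised counts in EloB KD, 131.6, 195.1 and 102.1 in EloC KD, and 48.0, 64.1 and 47.5 in Control KD libraries. EloC KD was above both other groups, by a log2 fold change of 1.37 ± 0.25 over Control KD (adjusted p = 0.00164), and EloB KD was 1.82 ± 0.25 below EloC KD (log2 fold change -1.82, adjusted p = 0.000259, limma). In EloB KD cells the log2 fold change was -0.44 ± 0.25 over Control KD and did not pass (adjusted p = 0.247).

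HOXA4 was higher in both knockdowns. It had 342.0 to 434.6 normalised counts in EloB KD, 416.6 to 440.0 in EloC KD and 227.7 to 266.1 in Control KD libraries. Its log2 fold change was 0.62 ± 0.13 in EloB KD and 0.79 ± 0.13 in EloC KD cells (adjusted p = 0.00946 and 0.00103, limma), and it passed in every alternative of both comparisons. In the annotation 541 of its 1747 exon bases are shared with another gene of the same strand.

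**Figure D3:**
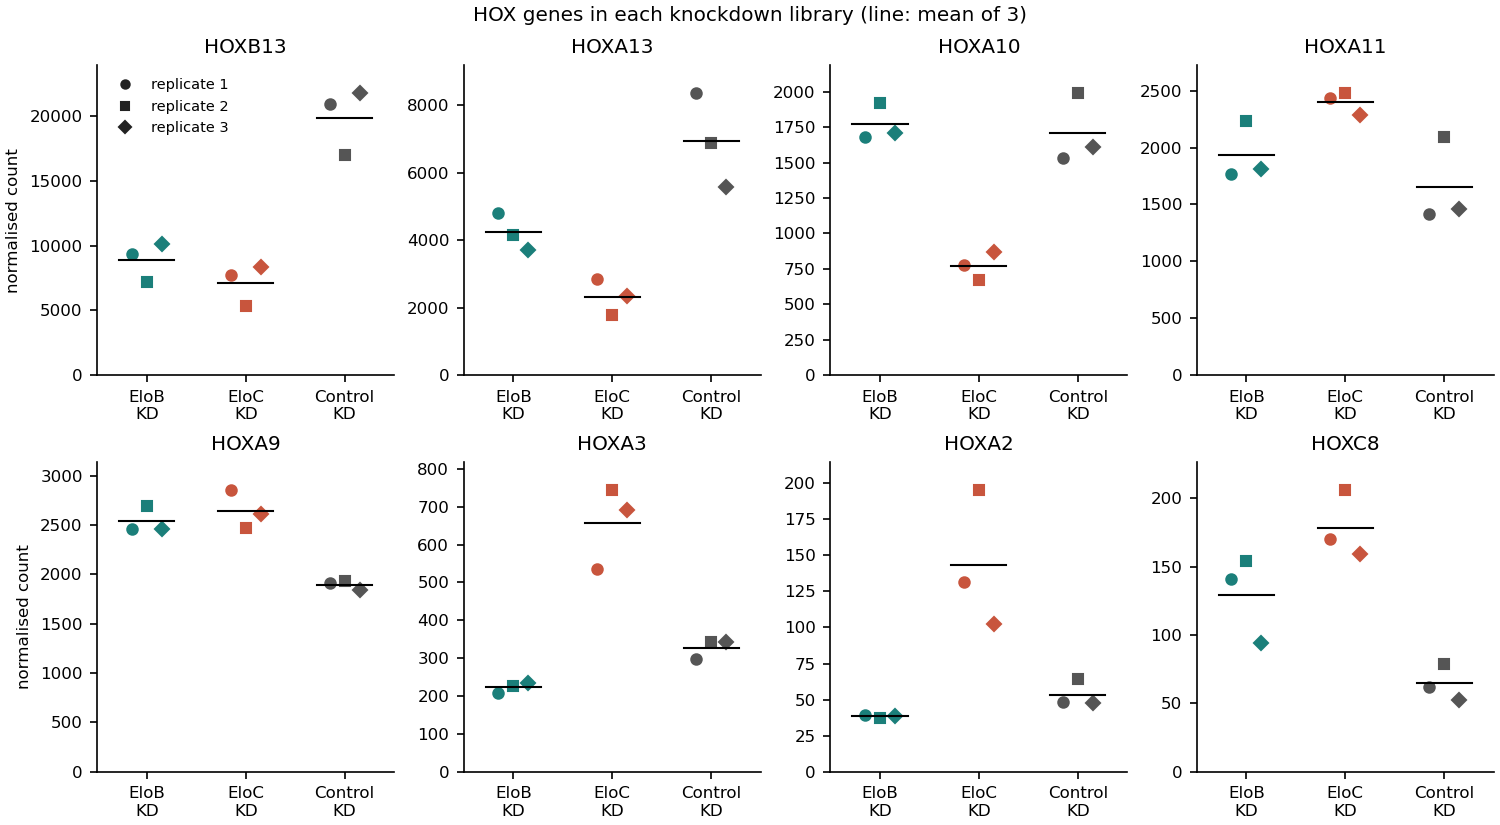
Normalised counts of 8 HOX genes in each knockdown library, from 0, with the replicate number as the marker shape and a line at the mean of 3. HOXB13 and HOXA13 are lower in both knockdowns, HOXA10 only in EloC KD libraries (672 to 866), HOXA3 is lowest in EloB KD and highest in EloC KD, HOXA2 is highest in EloC KD, and HOXC8 is higher in both.

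The remaining HOXA genes were at lower levels. HOXA7 had 49.4 to 63.4 normalised counts in EloB KD, 31.6 to 38.6 in EloC KD and 12.2 to 36.9 in Control KD libraries, so that only the EloB KD libraries were clear of Control KD. Its log2 fold change in EloB KD cells was 1.42 ± 0.35 (adjusted p = 0.0170, limma), lost under quantile scaling (0.0568) and without EloB KD replicate 3 (0.0581). In the annotation 1507 of the 2411 exon bases of HOXA7 overlap HOXA-AS3 on the other strand. HOXA5 averaged 212 ± 29.8, 189 ± 31.2 and 149 ± 25.1 in EloB KD, EloC KD and Control KD cells, and passed only in EloB KD with the block (log2 0.51, adjusted p = 0.0346). HOXA6 averaged 65.3 ± 17.2, 59.6 ± 11.2 and 40.3 ± 9.41 in the same order and passed in neither.

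Of 7 tested HOXC genes 2 were higher in EloB KD and 4 in EloC KD cells, against 9.34% and 21.3% of all genes. HOXC8, a thoracic gene, had 140.7, 153.7 and 93.7 normalised counts in EloB KD, 170.2, 205.8 and 158.9 in EloC KD, and 62.2, 79.0 and 52.4 in Control KD libraries, with no overlap of either knockdown with Control KD. Its log2 fold change was 0.98 ± 0.23 in EloB KD (adjusted p = 0.0150) and 1.46 ± 0.23 in EloC KD cells (adjusted p = 0.000725, limma). HOXC6, which is expressed in many prostate tumours, had 307 to 410 in EloB KD, 395 to 479 in EloC KD and 155 to 220 in Control KD libraries, and the log2 fold changes were 0.95 ± 0.18 and 1.29 ± 0.18 (adjusted p = 0.00514 in EloB KD and 0.000356 in EloC KD cells). The HOXC8 call in EloB KD cells was lost under quantile scaling and without EloB KD replicate 1 or 2 (adjusted p = 0.0503 to 0.0565), and that of HOXC6 held in every alternative.

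HOXC13, a gene of hair and nail, was higher in EloC KD cells only. It had 188.2, 274.7 and 229.2 normalised counts in EloB KD, 386.9, 693.5 and 412.6 in EloC KD, and 164.9, 286.3 and 171.7 in Control KD libraries. EloB KD and Control KD overlapped, with a log2 fold change of 0.18 ± 0.27 (adjusted p = 0.675), while EloC KD was above both groups, by 1.25 ± 0.27 over Control KD (adjusted p = 0.00409), and EloB KD was 1.07 ± 0.27 below EloC KD (log2 fold change -1.07, adjusted p = 0.00846, limma). HOXC10 had 65.2 to 113 in EloB KD, 103.9 to 106.1 in EloC KD and 33.0 to 71.1 in Control KD libraries, with 1.12 ± 0.30 in EloC KD cells (adjusted p = 0.0116) and 0.74 ± 0.30 in EloB KD cells (adjusted p = 0.106, and 0.0220 with the block). HOXC4 had 9.32 to 29.8 in EloB KD, 16.8 to 36.4 in EloC KD and 3.77 to 23.7 in Control KD libraries, shares exon bases with HOXC6 in the annotation, and passed in EloC KD cells with the block only (log2 1.06, adjusted p = 0.0184). HOXC9 averaged 34.1 ± 12.8, 28.1 ± 7.79 and 19.6 ± 2.96 in EloB KD, EloC KD and Control KD cells and passed in EloB KD with the block only (adjusted p = 0.0373).

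Within HOXB the genes between HOXB13 and the anterior end were higher where called. HOXB6 had 497.6, 406.3 and 345.6 normalised counts in EloB KD, 490.8, 363.4 and 440.0 in EloC KD, and 256.2, 255.5 and 260.5 in Control KD libraries. Both knockdowns were clear of Control KD, with log2 fold changes of 0.68 ± 0.16 in EloB KD (adjusted p = 0.0157) and 0.73 ± 0.16 in EloC KD cells (adjusted p = 0.00476, limma); without EloB KD replicate 1 the EloB KD value was 0.54 (adjusted p = 0.0540). HOXB4, which expands blood stem cells, had 36.3, 36.5 and 19.9 in EloB KD, 19.8, 18.2 and 16.8 in EloC KD, and 12.2, 8.78 and 8.52 in Control KD libraries. It passed the filter on low values through the knockdown libraries, since Control KD averaged 9.85, and its log2 fold change was 1.52 ± 0.32 in EloB KD (adjusted p = 0.00789) and 0.84 ± 0.32 in EloC KD cells (adjusted p = 0.0532, and 0.0264 with the block).

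HOXB3 and HOXB5 were higher in EloB KD cells only by the test used, and these calls were not stable. In the annotation HOXB3 shares exon bases with HOXB4 and HOXB6. HOXB3 averaged 218 ± 28.4 in EloB KD, 164 ± 28.2 in EloC KD and 141 ± 20.5 in Control KD cells, with 0.62 ± 0.18 in EloB KD cells (adjusted p = 0.0368; 0.0560 to 0.123 in the 7 alternatives in which the call was lost). HOXB5 averaged 173 ± 39.6, 110 ± 18.3 and 106 ± 15.2 in the same order, with 0.69 ± 0.22 in EloB KD cells (adjusted p = 0.0448; 0.0565 to 0.147 in 8 alternatives). EloB KD was above EloC KD for HOXB5 by 0.64 ± 0.22 (adjusted p = 0.0321) and for HOXB7 by 0.87 ± 0.32 (adjusted p = 0.0467), calls lost in 5 and 9 alternatives. HOXB7 averaged 17.0 ± 1.63, 9.03 ± 2.41 and 11.3 ± 2.48 normalised counts in EloB KD, EloC KD and Control KD cells.

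At the posterior end of HOXB, the genes on the 2 sides of the gap before HOXB13 went in different directions. HOXB9 had 383.0, 715.5 and 427.1 normalised counts in EloB KD, 366.1, 578.8 and 397.9 in EloC KD, and 227.0, 447.9 and 264.2 in Control KD libraries. Replicate 2 was the highest in each group, and the groups overlapped. The log2 fold change was 0.71 ± 0.30 in EloB KD (adjusted p = 0.123) and 0.55 ± 0.30 in EloC KD cells (adjusted p = 0.163); with the replicate number as a block the adjusted p was 0.000630 and 0.00127. PRAC1 and PRAC2, small genes between HOXB9 and HOXB13 first found in prostate and colon, were listed with the genes that flank the cluster.

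PRAC1 fell alongside HOXB13. It had 2825, 1933 and 2228 normalised counts in EloB KD, 2617, 1620 and 2385 in EloC KD, and 5005, 4170 and 3268 in Control KD libraries, without overlap of either knockdown with Control KD. The log2 fold change was -0.83 ± 0.21 in EloB KD (adjusted p = 0.0190) and -0.92 ± 0.21 in EloC KD cells (adjusted p = 0.00529, limma). PRAC2 had 317.7, 317.9 and 424.2 in EloB KD, 422.5, 330.1 and 595.7 in EloC KD, and 551.1, 504.1 and 646.5 in Control KD libraries. It fell in EloB KD (-0.69 ± 0.21, adjusted p = 0.0434) and did not pass in EloC KD cells (-0.37 ± 0.21, adjusted p = 0.183), where 1 library overlapped Control KD.

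**Figure D4:**
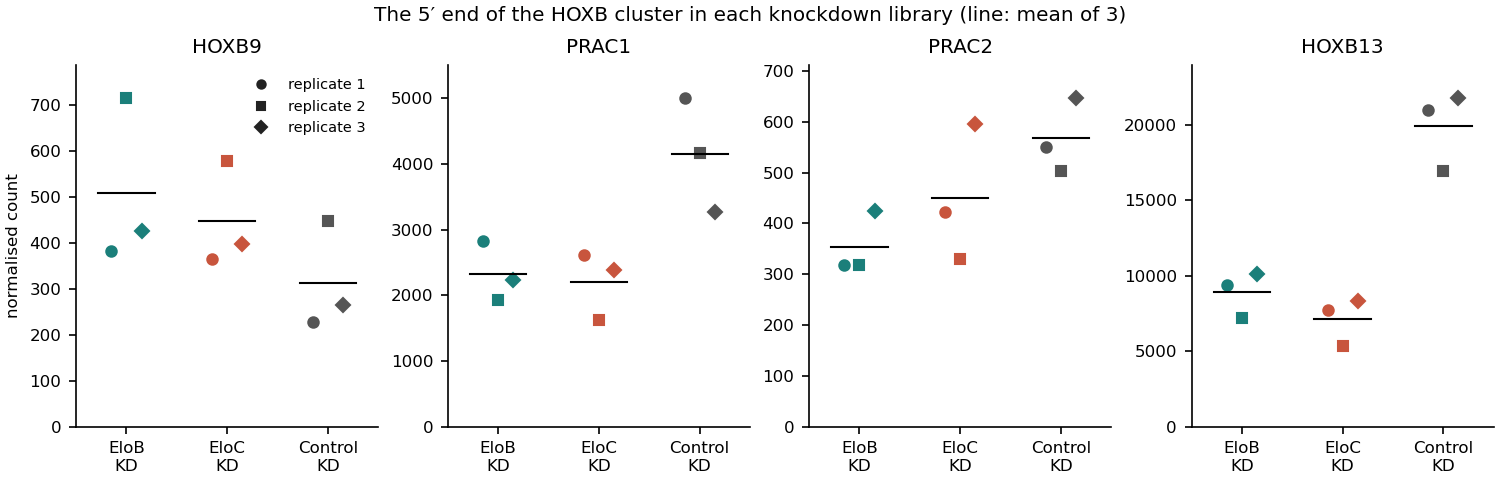
Normalised counts of HOXB9, PRAC1, PRAC2 and HOXB13, in their order along the chromosome, in each knockdown library, with the replicate as the marker shape and a line at the mean of 3. HOXB9 is highest in replicate 2 of every group, and HOXB13 and PRAC1 are lower in every EloB KD and EloC KD library than in any Control KD library.

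HOXD members were called in EloB KD cells only, without a called difference between the knockdowns for those 2 genes. HOXD8 had 273.9, 276.6 and 233.9 normalised counts in EloB KD, 168.2, 210.1 and 211.6 in EloC KD, and 158.3, 196.7 and 151.0 in Control KD libraries, with 0.64 ± 0.17 on the log2 scale in EloB KD cells (adjusted p = 0.0224) and 0.22 ± 0.17 in EloC KD cells (adjusted p = 0.305). HOXD4 averaged 124 ± 27.7 in EloB KD, 85.8 ± 25.8 in EloC KD and 61.7 ± 9.98 in Control KD cells, with 0.98 ± 0.26 in EloB KD cells (adjusted p = 0.0252). The HOXD8 call was lost in 5 alternatives (adjusted p = 0.0555 to 0.0714) and the HOXD4 call in 4 (0.0592 to 0.0898), quantile scaling among them. EloB KD minus EloC KD was 0.41 ± 0.17 for HOXD8 (adjusted p = 0.0638, and 0.0264 with the block) and 0.55 ± 0.26 for HOXD4 (adjusted p = 0.114, and 0.0441 with the block). Of the 1464 exon bases of HOXD4, 1178 are shared with another annotated gene of the same strand, as are 2206 of the 3548 of HOXD3. HOXD13, which patterns digits, averaged 241 ± 26.4 in EloB KD, 153 ± 31.9 in EloC KD and 190 ± 49.96 in Control KD cells; EloB KD over EloC KD passed (0.66 ± 0.21, adjusted p = 0.0272, lost in 4 alternatives at 0.0789 to 0.0933), and EloB KD over Control KD passed with the block alone (adjusted p = 0.0478).

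The knockdowns were also compared directly. Of 30 members tested, 9 differed, 5 higher in EloB KD (HOXA10, HOXA13, HOXB5, HOXB7 and HOXD13) and 4 lower (HOXA2, HOXA3 and HOXC13 among them), against 46.1% of all genes (22.3% higher, 23.8% lower). With the block 16 passed, 9 higher and 7 lower, against 59.4% of all genes (28.7% higher, 30.7% lower), which added HOXB3, HOXB13, HOXD4 and HOXD8 as higher in EloB KD and HOXA11, HOXC6 and HOXC8 as lower. Under quantile scaling 7 passed, with 2 higher and 5 lower, against 6242 of all 13764 genes. HOXA2, HOXA3, HOXA10, HOXA13 and HOXC13 passed in every alternative.

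Genes that act with HOX proteins or on the clusters were read from short lists, beside 20.5% of all genes called in EloB KD and 42.5% in EloC KD cells, and no list was tested as a set. Of 10 tested cofactors of the TALE class, EloB KD cells had 1 higher and 1 lower and EloC KD cells 4 higher and 2 lower. MEIS2 averaged 841 ± 24.98 in EloB KD, 843 ± 24.6 in EloC KD and 535 ± 51.6 in Control KD cells, a log2 fold change of 0.66 ± 0.11 in each (adjusted p = 0.00218 in EloB KD and 0.000787 in EloC KD). PBX3, a partner of HOXA9, was higher in EloC KD cells only by the test against Control KD (0.70 ± 0.11, adjusted p = 0.000751), and PKNOX1 was lower in EloB KD (-0.48 ± 0.10, adjusted p = 0.00757) and in EloC KD cells (-0.34 ± 0.10, adjusted p = 0.0178). TGIF1 and PBX4 were the other 2 higher and TGIF2 the other lower gene in EloC KD cells.

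Among 9 Trithorax and MLL complex genes, which keep HOX genes active, 3 were lower in EloB KD cells and 0 higher, and 4 were lower and 1 (KMT2B) higher in EloC KD cells, of 9 genes each, against the 20.5% and 42.5% of all genes called. KMT2A, the MLL methyltransferase, fell by 0.49 ± 0.15 in EloB KD (log2, adjusted p = 0.0406) and 0.48 ± 0.15 in EloC KD cells (adjusted p = 0.0252), and PSIP1, which tethers MLL to chromatin, by 0.67 ± 0.13 (adjusted p = 0.00465) and 0.48 ± 0.13 (adjusted p = 0.0109). Among 18 Polycomb genes, which silence HOX clusters, 1 was higher and 2 lower in EloB KD cells and 3 higher and 1 lower in EloC KD cells, shares below those of all genes. BMI1 and CBX2, members of a Polycomb complex, were lower in EloB KD (-0.52 ± 0.13 and -0.47 ± 0.12, adjusted p = 0.0182 and 0.0228) and higher in EloC KD cells (0.70 ± 0.13 and 0.82 ± 0.12, adjusted p = 0.00167 and 0.000537). KDM6B, 1 of the 2 demethylases of the Polycomb mark, was higher in EloC KD cells (0.92 ± 0.13, adjusted p = 0.000385).

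Of 12 tested retinoic acid genes, EloB KD cells had 0 higher and 3 lower (median log2 -0.49) and EloC KD cells 2 higher and 4 lower (median -0.12), shares near the 20.5% and 42.5% of all genes called. ALDH1A3 and ALDH1A2, enzymes that make retinoic acid, were lower in EloB KD (-1.07 ± 0.11 and -0.98 ± 0.21, adjusted p = 0.000199 and 0.00901) and in EloC KD cells (-0.46 ± 0.11 and -0.59 ± 0.21, adjusted p = 0.00666 and 0.0426). RARA, a receptor, was higher in EloC KD cells (0.94 ± 0.19, adjusted p = 0.00312). Of 8 CTCF and cohesin genes, which shape the clusters' contacts, 1 was lower in EloB KD cells, and 2 were higher and 2 lower in EloC KD cells. The 3 tested ParaHox and linked homeobox genes had no call in either.

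Genes that flank the clusters moved in both directions, beside 20.5% of all genes called in EloB KD and 42.5% in EloC KD cells. Beside HOXA, of 5 tested, EloB KD cells had 2 lower (SNX10 and HIBADH) and EloC KD cells 2 higher (SKAP2 and JAZF1) and 1 lower (HIBADH). SKAP2 was 1.07 ± 0.18 higher in EloC KD cells (log2, adjusted p = 0.000836). Beside HOXB, of 7 tested, EloB KD cells had 1 higher and 2 lower and EloC KD cells 3 higher and 2 lower. SKAP1, the gene next to HOXB1, had 41.0, 53.8 and 36.9 normalised counts in EloB KD, 28.7, 71.8 and 35.8 in EloC KD, and 11.3, 12.3 and 6.09 in Control KD libraries, with 2.08 ± 0.38 in EloB KD and 2.03 ± 0.38 in EloC KD cells (adjusted p = 0.00413 and 0.00182, limma); it averaged 9.90 in Control KD cells and passed the filter on low values through the knockdown libraries. Beside HOXC, of 4, SMUG1 was higher in EloB KD and CBX5 lower in EloC KD cells, and beside HOXD, of 4, MTX2 was higher in EloB KD and ATP5MC3 and HNRNPA3 lower in EloC KD cells.

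With the peptides no HOX gene was called. The WT peptide was set against the Scrambled peptide to ask what binding of the BC-box peptide changes, and the Mutant peptide served as a second comparison. For the WT peptide over the Scrambled peptide 0 of 28 members passed, against 1.43% of 13105 genes, and 2 (HOXA5 and HOXB6) had an unadjusted p under 0.05, as did 13.4% of all genes. For the Mutant peptide over the Scrambled peptide 0 passed, against 0% of all genes, and 1 (HOXC10) had an unadjusted p under 0.05 (8.71% of all genes). For the WT over the Mutant peptide 0 passed, against 0%, with 2 (HOXB4 and HOXB5) at an unadjusted p under 0.05 (6.85% of all genes). By edgeR the count was also 0 in all 3 comparisons, and by DESeq2 it was 0 among the members that it gave an adjusted p, which were 10 for the WT and 24 for the Mutant over the Scrambled peptide and 5 for the WT over the Mutant peptide. The median log2 fold change of the 28 was -0.06 for the WT and -0.06 for the Mutant over the Scrambled peptide, and 0.03 for the WT over the Mutant peptide.

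The HOX genes with the most RNA overlapped between the peptides. HOXB13 had 8427, 11079 and 8220 normalised counts with the WT peptide, 9087, 12379 and 8517 with the Mutant peptide, and 8715, 10792 and 7823 with the Scrambled peptide. Replicate 2 was the highest in each group and the groups overlapped. HOXA13 had 2094 to 2341 with the WT, 2263 to 2482 with the Mutant and 2134 to 2446 with the Scrambled peptide, and HOXA10 had 964 to 1146, 875 to 1075 and 899 to 1134. HOXA3 had 337 to 434 with the WT, 342 to 368 with the Mutant and 345 to 440 with the Scrambled peptide.

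With the replicate number as a block, 2 of 28 passed for the Mutant over the Scrambled peptide (8.30% of all genes, 3.72% higher and 4.59% lower), HOXB13 higher by 0.13 (adjusted p = 0.0293) and HOXB9 lower by a log2 fold change of -0.27 (adjusted p = 0.0223), and 0 passed for the WT over the Scrambled peptide (16.2%) and for the WT over the Mutant peptide (4.09%). Without the block their adjusted p was 0.927 and 0.797, and the HOXB13 value turned to -0.04 without Mutant peptide replicate 2. HOXB9 had 473.0, 363.2 and 493.0 normalised counts with the WT, 438.3, 317.5 and 440.2 with the Mutant and 519.2, 365.3 and 566.3 with the Scrambled peptide, with replicate 2 the lowest in each. Of the listed genes, PHF19, a Polycomb protein, was higher (0.50 ± 0.06, adjusted p = 0.00328) and CALCOCO1, beside HOXC, lower (-0.30 ± 0.05, adjusted p = 0.0210) with the WT peptide over the Scrambled peptide, and the others had no call.

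**Figure D5:**
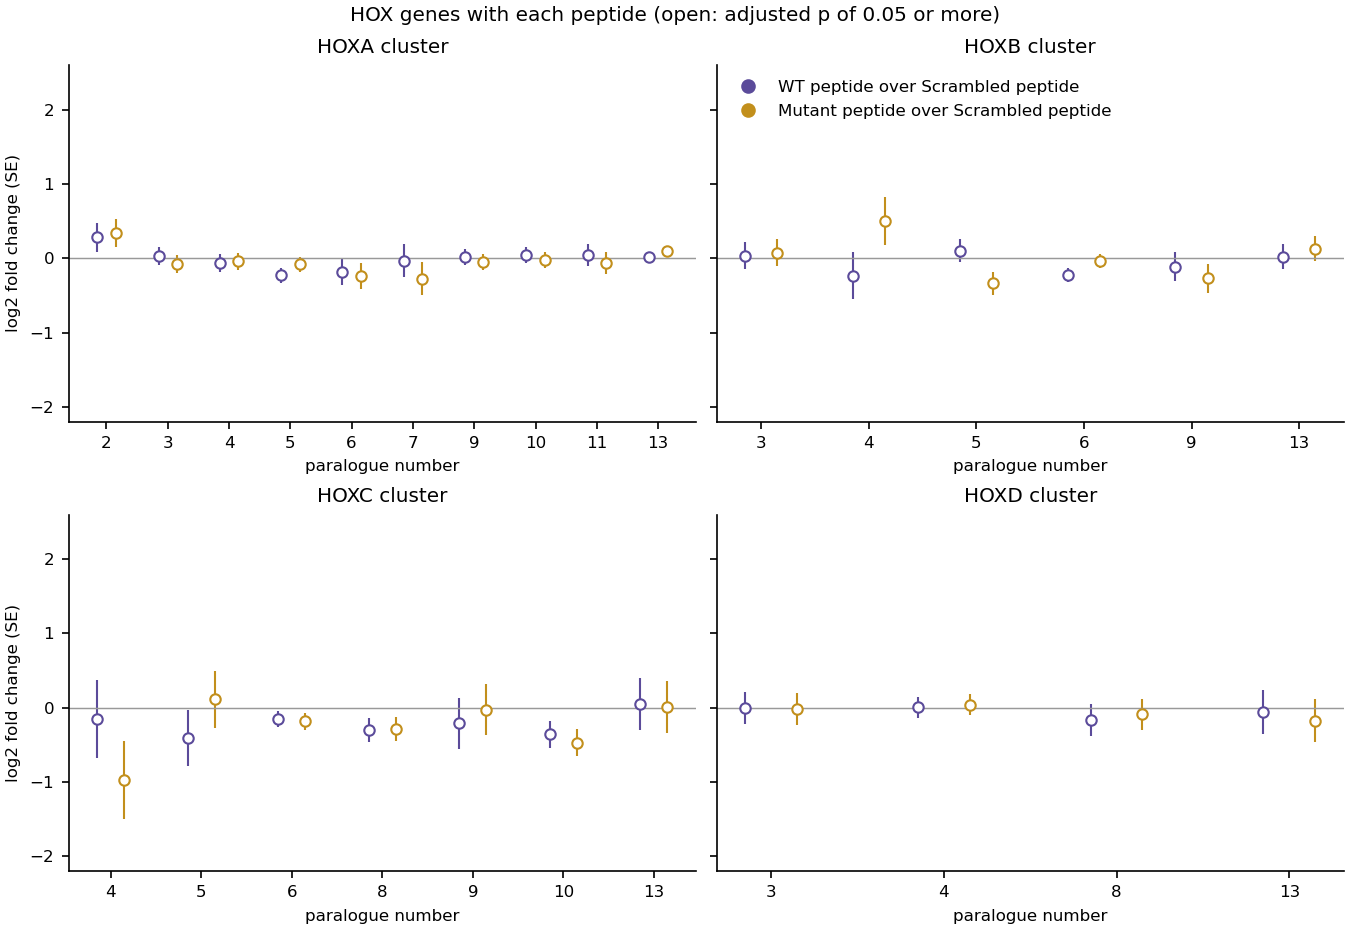
Log2 fold change with SE of the HOX genes tested in the peptide experiment, for the WT peptide (left of each pair) and the Mutant peptide over the Scrambled peptide, on the same axis range as for the knockdowns; all points are open, meaning an adjusted p of 0.05 or more. HOXC4 with the Mutant peptide (-0.97) lies farthest from 0, and HOXB13 and HOXA13 lie within 0.13 of it.

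HOX levels also moved with the replicate number. In the knockdown experiment replicate 2 was the highest library of all 3 groups for 11 of 30 members, among them HOXA11, HOXB9, HOXC13 and HOXD13, and HOXB13 had its lowest library in replicate 2 of each group. In the peptide experiment replicate 2 was the lowest of all 3 groups for 11 of 28 members, among them HOXA9, HOXA10, HOXB9 and HOXC13, and HOXB13 had its highest there. The share of all genes with these patterns was not counted, so they are not given as particular to HOX genes. Over all genes tested, replicate 2 libraries also deviated together (r 0.513 to 0.566 for knockdowns, 0.697 to 0.715 for peptides). The labels do not say what a replicate number marks, and its part in these levels was not tested beyond the block.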

How the data were processed

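PC3 RNA was sequenced with a stranded mRNA kit, per the labels' protocols. The submitters' processing notes name hg38, featureCounts and DESeq2 without versions; the aligner and whether counting used strand are not given in the sources used here. The deposited values are a signal, normalised counts (reads divided by a size factor), 1 table per experiment; 100% of values were whole reads within 0.05 reads. The members and gene lists were chosen with earlier results of these data known.

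The test was limma 3.58.1 (trend) in R 4.3.3 on log2(normalised count + 1), for genes whose mean over the 9 libraries of their experiment was 10 or more, with the 3 groups sharing 1 spread; 2-sided p-values were adjusted by Benjamini-Hochberg over all genes at a threshold of 0.05, in 6 comparisons. Fold changes are on that scale and understate low genes. Levels may be given for any HOX gene; fold changes are given for those called with or without the block, beside their values in the other comparisons, and for HOXB13, and for at most 4 called genes per list by smallest adjusted p. Other genes given with values were chosen after their values were seen. An exact permutation test of 3 against 3 cannot go below 0.1, so none is given.

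Same-numbered libraries deviated together (r 0.236 to 0.566 for knockdowns, 0.254 to 0.715 for peptides), against -0.439 to 0.0703 and -0.546 to 0.336 for other pairs. The numbers were taken as pairs from the data, the labels being silent. For the peptides the ranges overlap. WT peptide replicate 1 had r 0.336 with Scrambled peptide replicate 3 and 0.254 with Scrambled peptide replicate 1. The pairing of replicates 1 and 3 is thus unsure there, as are the calls of the peptide block. Alternatives were TMM and quantile scaling, pseudocounts of 5 and 0.5, no filter, and a mean of at least 50. Others were edgeR 4.0.16 and DESeq2 1.42.0 on the recovered reads, the replicate block, and only the groups compared. Each library of the groups compared was also left out in turn. The authors' deposited comparison tables were not used here, and some genes are not reported here, in text or plots, though counts include them. Intervals for unread genes cover counting error only. The tests were checked on simulated data.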

Additional observations from a re-analysis of the deposited data

How the results depend on the processing

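For EloB KD over Control KD, 15 HOX genes passed. Quantile scaling gave 8 and leaving out 1 library 7 to 13. Of all 13764 genes, 2822 passed in the main fit, 2707 under quantile scaling and 1915 to 2373 with 1 library left out. HOXA4, HOXA9, HOXC6 and HOXB13 passed in every alternative. HOXB4 passed wherever it was tested, but it was not tested at a mean of at least 50. It entered the filter through the knockdown libraries, so its passing is no support. For EloC KD over Control KD all 14 passed in every alternative in which they were tested, and leaving out 1 library gave 14 to 16. All genes called there were 5844 in the main fit and 4506 to 5413 with 1 library left out. For EloB KD over EloC KD 9 passed, 16 with the replicate block and 6 to 8 with 1 library left out. All genes called there were 6343, 8171 and 5170 to 5626 in the same order. The peptide counts stayed at 0 with 1 library left out; the replicate block gave 2 for the Mutant over the Scrambled peptide. With 1 library left out the log2 fold change of HOXA10 in EloB KD over Control KD, 0.06, ran to 0.17; it was -0.00459 without EloB KD replicate 2 and -0.0185 without Control KD replicate 1, and that of HOXB13 for the Mutant over the Scrambled peptide, 0.13, ran to 0.26 and was -0.0373 without Mutant peptide replicate 2. The cause was not tested. On recovered reads edgeR called 2847, 5845 and 6363 genes in the 3 knockdown comparisons in the order above, and 198, 0 and 0 for the WT over the Scrambled, the Mutant over the Scrambled and the WT over the Mutant peptide; DESeq2 called 3456, 6272, 6730, 581, 184 and 62. HOX genes under 10 normalised counts rest on few reads and were not tested.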
